A study of Mus musculus with 16 samples.

Results

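The 30 genes described here encode the enzymes, carriers and electron acceptors of mitochondrial fatty acid oxidation, together with enzymes that make or use ketone bodies and the kinase that diverts mitochondria from glucose to fat. All 30 were found by symbol among the 24940 genes of the table, and all 30 passed the filter on low counts in every comparison. They were chosen by name, and the choice was made with the genotype contrasts of these same libraries in view, so the genotype values below are a description of the members and support nothing beyond it. The sex contrasts were not used in the choice, but they are drawn from the same libraries and so are not fully separate from it.

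The libraries came from polyadenylated RNA of the distal ileum, just above the cecum, of 16 C57BL/6 mice, with 4 males and 4 females of each of 2 genotypes, WT and LKO. WT animals were Bcl6 fl/fl, with loxP sites around part of Bcl6, which encodes a DNA-binding repressor, and no Cre. LKO animals were also Bcl6 fl/fl and carried Alb-cre, in which the albumin promoter drives Cre recombinase in hepatocytes. Bcl6 was therefore deleted in liver in the LKO groups alone, and was left in place in ileum in all 4 groups. No group received a treatment, the labels give no age, and the methods allow for fed or briefly fasted animals without saying which each of these was. The comparison asks how loss of Bcl6 in the liver changed transcripts in the intestine, and bulk tissue cannot tell fewer cells of a type from less RNA per cell.

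Long-chain fatty acids are activated to acyl-CoA at the outer mitochondrial membrane, handed to carnitine, carried across the inner membrane and handed back to CoA. Inside, each turn of the spiral runs through a dehydrogenase, a hydratase, a second dehydrogenase and a thiolase, and electrons leave through the electron transfer flavoprotein or as NADH. In liver the acetyl-CoA feeds ketone bodies, whereas enterocytes absorb dietary fat, oxidise part of it and take up ketone bodies as well as make them. Nuclear receptors of the PPAR and ERR families control many of these genes.

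The members whose transcripts passed the threshold over both sexes were Acadl, Hadha, Cpt2 and Slc25a20. Their upstream sequences are shown because these 4 genes passed together, and they are the 250 bases before the RefSeq transcription start on GRCm38.p6, the assembly also known as mm10, written from the distal end towards the start. Capitals mark matches on either strand to GGGCGG (a GC box). The Hadha sequence (chr5:30154981-30155230, minus strand) lies wholly between the starts of Hadha and Hadhb, which lie 273 bases apart and face away from each other, so it also precedes Hadhb. The others are chr1:66863310-66863559 on the minus strand, chr4:107923590-107923839 on the minus strand and chr9:108661886-108662135 on the plus strand. For Slc25a20 the count table places the start at 108662098, before the end of the printed sequence, so its last bases, with the GGGCGG match nearest the end, lie inside the transcript as counted.
Acadl: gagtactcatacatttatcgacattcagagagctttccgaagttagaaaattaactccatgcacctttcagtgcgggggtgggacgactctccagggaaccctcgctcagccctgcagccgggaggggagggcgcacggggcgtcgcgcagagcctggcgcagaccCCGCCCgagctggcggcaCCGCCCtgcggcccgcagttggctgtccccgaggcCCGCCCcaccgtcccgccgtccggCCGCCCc
Hadha: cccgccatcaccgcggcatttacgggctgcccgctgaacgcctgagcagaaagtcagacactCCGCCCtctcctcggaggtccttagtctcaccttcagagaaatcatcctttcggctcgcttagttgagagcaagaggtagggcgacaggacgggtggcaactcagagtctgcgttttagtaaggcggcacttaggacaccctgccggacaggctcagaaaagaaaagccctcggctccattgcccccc
Cpt2: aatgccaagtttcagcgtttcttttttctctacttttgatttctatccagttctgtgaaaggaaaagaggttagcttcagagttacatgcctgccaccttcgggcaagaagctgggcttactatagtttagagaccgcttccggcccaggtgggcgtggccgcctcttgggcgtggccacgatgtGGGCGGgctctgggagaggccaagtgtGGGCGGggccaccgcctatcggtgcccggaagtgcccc
Slc25a20: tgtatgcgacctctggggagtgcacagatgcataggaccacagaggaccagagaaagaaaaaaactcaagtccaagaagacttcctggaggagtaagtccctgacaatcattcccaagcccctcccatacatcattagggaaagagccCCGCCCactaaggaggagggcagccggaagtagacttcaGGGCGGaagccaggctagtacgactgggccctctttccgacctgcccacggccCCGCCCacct

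GGGCGG matched 4 times in the Acadl sequence, 1 time in Hadha, 2 times in Cpt2 and 3 times in Slc25a20. Promoters were given for 26 of the 30 members (28 promoters), and 53.6% of these held GGGCGG in the 250 bases, against 32.7% of all 32851 mouse promoters. Member promoters were also richer in G and C, with a median of 58.8% against 52.4%. CCAAT, searched on both strands, was in none of the 4 sequences, in 42.9% of member promoters and in 33.8% of all. The element AGGTCA, the core letters bound by PPAR and ERR receptors, matched in 14.3% of member promoters and 14% of all. It was found in Acadm, Acadvl, Cpt1a and Echs1 and in none of the 4 sequences above. AAGGTCA, which contains AGGTCA, matched in Acadm alone among members (3.57% of member promoters, 4.08% of all), TCAAGGTCA in no member promoter (0.387% of all) and CACGTG in none (6.02% of all). A pair of AGGTCA elements spaced by 1 base was in no member promoter and in 0.0335% of all. These matches describe letters in a short window and say nothing about binding.

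The AGGTCA matches of Acadm, Acadvl and Cpt1a are shown with up to 20 bases on each side, with the element in capitals, because these genes of the same pathway differed in their values. They lie at chr3:153944867-153944893 (minus strand), chr11:70015490-70015535 (minus strand) and chr19:3323187-3323232 (plus strand), and begin 249, 87 and 94 bases before the start.
Acadm: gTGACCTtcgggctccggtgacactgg
Acadvl: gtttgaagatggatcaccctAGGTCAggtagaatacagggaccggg
Cpt1a: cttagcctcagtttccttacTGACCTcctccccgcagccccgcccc

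Gene counts of 15 libraries lay between 15739600 and 20467100, and female LKO replicate 1 reached 60324300. Levels below are counts-per-million (CPM) scaled by TMM, and replicates of a group differed beyond counting noise in all 24 pairs (chi-square over degrees of freedom from 9.26 to 30.8). Ileal markers were abundant as a sum in every library, 8 ileal enterocyte genes together having a median of 7580 to 8800 CPM in the 4 groups. Single genes of this list differed widely in level, and not each was abundant in every library. Bcl6 itself was at 14 to 17.9 CPM in male WT, 17.2 to 21.9 CPM in male LKO, 9.24 to 15.1 CPM in female WT and 15.2 to 26.1 CPM in female LKO, which does not check the labels because the deletion was made in liver. Some pieces held other RNA as well. Car1, a gene of cecum and colon, exceeded 100 CPM in 5 libraries (male WT replicates 3 and 4, male LKO replicate 2, female WT replicates 1 and 4) and stayed at or below 47.2 CPM in the other 11, while Hoxb13 and Hoxd13, markers of the distal colon, were at or near 0 throughout. The sum of 8 B cell markers exceeded 50 CPM in 4 libraries (male WT replicate 2, female WT replicate 3, female LKO replicates 2 and 3), with a highest value of 352 CPM. Members were therefore also tested without each of these sets of libraries, a choice made after the data were seen. These fits rest on few animals. Without the B cell set, female LKO kept replicates 1 and 4 alone, replicate 1 being the deepest library. Without the Car1 set, male WT kept replicates 1 and 2 alone and female WT replicates 2 and 3.

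Per kilobase of transcript, the members spanned a wide range. Levels are compared between genes as RPKM, the CPM per kilobase of transcript, averaged over 16 libraries. Acsl5, the main acyl-CoA synthetase of intestine, was highest at 221 ± 20.3 RPKM (SD, n = 16), followed by Hadh, the short-chain hydroxyacyl-CoA dehydrogenase, at 200 ± 15.9 RPKM, and the ranges of the pair overlapped (188 to 258 and 163 to 219 RPKM). Etfb (120 RPKM), Oxct1 (98.3 RPKM) and Hadha (86.2 RPKM) came next, with overlapping neighbours. Etfa, Acadl, Echs1, Acadvl, Acads, Cpt1a, Cpt2, Slc25a20, Acadm, Acaa2, Hsd17b10 and Bdh1 lay between 51.9 and 81 RPKM, where neighbours in the order overlapped. Etfdh, Acot13, Eci1, Decr1, Slc22a5 and Eci2 lay between 27.9 and 47.9 RPKM, and Acad11, Crat and Acsl1 between 11.7 and 19.8 RPKM. The lowest were Acad10 (2.64 RPKM), Pdk4 (2.46 RPKM) and Acot2 (1.83 RPKM), all still above 3 counts in every library.

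**Figure D1:**
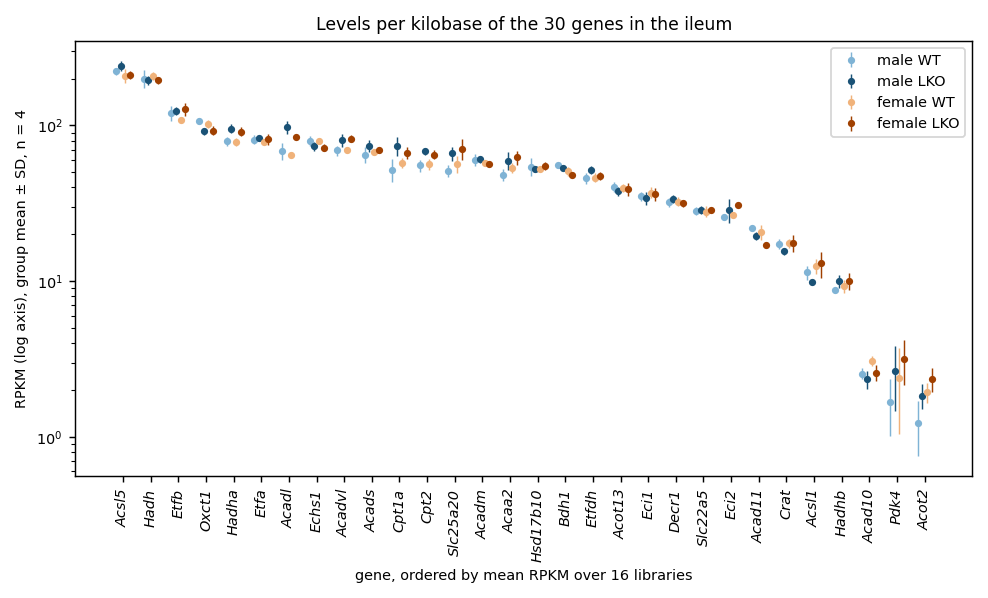
Level of each of the 30 genes in RPKM (log axis), as group mean ± SD over 4 animals, ordered by the mean over 16 libraries. Acsl5 and Hadh lie near 200 RPKM, most enzymes between 27.9 and 120 RPKM, and Acad10, Pdk4 and Acot2 below 3 RPKM.

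Hadhb stood out against its partner. HADHA and HADHB are the alpha and beta subunits of the mitochondrial trifunctional protein, and Hadhb was at 9.51 RPKM where Hadha was at 86.2 RPKM. Of the Hadhb transcript, 69.8% matched another annotated transcript at 98% identity or more over at least 100 bases, and the study discarded reads with several mapping positions, so the Hadhb level may be an undercount, whose size was not tested. The same search gave 31.8% for Slc22a5, 13.5% for Acad10, 2.9% for Pdk4 and 0 for the other members. The annotated gene Gm45233 covers, with a microRNA gene, 58.2% of Etfb exon bases on the same strand, which strand cannot separate, so the Etfb level is uncertain. Exons of Dvl2 on the opposite strand cover 42.9% of Acadvl exon bases. As a check of strand, Xist had a mean of 457 CPM in the female libraries, where its antisense partner Tsix had 0.445 CPM.

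Spread within groups also differed among members. The median coefficient of variation over the 4 groups was 41.8% for Pdk4 and 17.5% for Acot2, the members with the fewest reads, and 2.96% for Bdh1, 4.12% for Eci2 and 4.78% for Acadm. Over the 16 libraries Pdk4 spanned 3.96-fold from lowest to highest and Cpt1a 2.24-fold, whereas Etfa and Echs1 each spanned 1.2-fold.

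**Figure D2:**
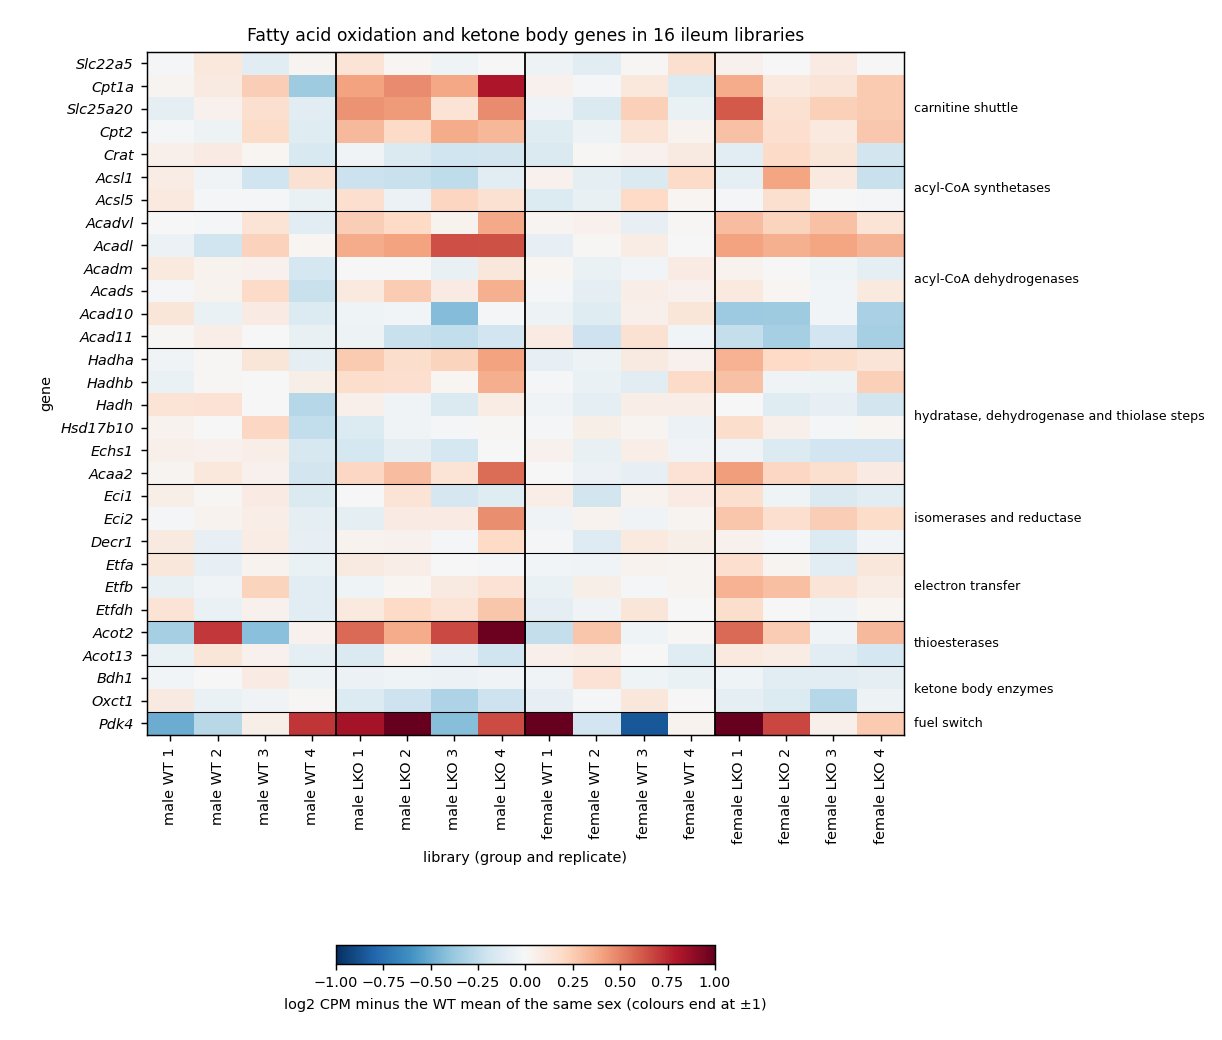
Log2 CPM of each gene (rows, by role) in each library (columns, by group and replicate) minus the WT mean of the same sex; red is higher, blue is lower and colours end at 1 unit. Cpt1a, Slc25a20, Cpt2, Acadvl, Acadl, Hadha and Acaa2 are red across nearly every LKO column, whereas Acad11 and Oxct1 are blue there and Pdk4 varies within every group.

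Over both sexes, with sex as a covariate, 4 of the 30 members passed an adjusted p of 0.05 in edgeR, and all 4 were higher in LKO, where 0.269% of the 15598 genes tested passed. With DESeq2, 9 members passed, 7 higher and 2 lower, where 1.45% of genes passed. The median log2 fold change of the members was 0.06, with 19 higher and 11 lower, and that of all genes was 0.00065. These counts follow from how the members were picked and are printed for orientation. Without the 5 libraries high in Car1 1 member passed in edgeR (Acadl), without the 4 high in B cell markers 2 did (Slc25a20 and Acadl), and with the replicate number as a block 1 did (Acadl). With the animals' title number as a covariate 0 passed, with log2 fold changes of 0.22 for Hadha (adjusted p 0.244), 0.24 for Cpt2 (0.25) and 0.38 for Slc25a20 (0.182). Without any single library the count was 1 to 5. It fell to Acadl alone without male WT replicates 1 or 2, male LKO replicates 2 or 4, female WT replicate 1 or female LKO replicates 1, 2 or 3, and to 2 without female WT replicates 2 or 4 or female LKO replicate 4. Inside the threshold, with the values nearest it, were Cpt2 (adjusted p 0.0426) and Slc25a20 (0.047), and just outside it lay Acadvl (0.0502) and Acad11 (0.0592), all from edgeR.

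Acadl encodes long-chain acyl-CoA dehydrogenase, which opens the spiral for long-chain and branched substrates. It measured 127, 115, 155 and 134 CPM in the 4 male WT libraries and 171, 174, 206 and 205 CPM in male LKO. The female values were 119, 127, 132 and 125 CPM in WT and 166, 161, 165 and 159 CPM in LKO. Every LKO library was above every WT library of the same sex, and the coefficient of variation was 1.96% in female LKO and 12.6% in male WT. Its LKO over WT log2 fold change reached 0.51 (SE 0.095) in males, 0.37 (SE 0.055) in females and 0.44 (SE 0.058) over both sexes, a 1.36-fold difference with an adjusted p of 0.000834 (edgeR). It stayed past the threshold in all 16 fits that left out a single library (adjusted p at most 0.00419), without the libraries high in Car1 (log2 fold change 0.49, adjusted p 0.019) and without those high in B cell markers (0.0193), and lost it with the animals' title number as a covariate (log2 fold change 0.37, adjusted p 0.066). In males all WT title numbers were below all LKO ones, so number and genotype cannot be told apart there.

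The carnitine shuttle held 2 of the 4 members that passed. Cpt1a, the outer-membrane carnitine palmitoyltransferase and the controlled entry step, measured 223, 233, 260 and 171 CPM in male WT and 290, 304, 287 and 385 CPM in male LKO. Female WT libraries held 253, 243, 264 and 223 CPM and female LKO libraries 318, 263, 268 and 294 CPM, where the highest WT library was just above the lowest LKO library. The log2 ratio of LKO to WT reached 0.52 (SE 0.13) in males, 0.22 (SE 0.077) in females and 0.36 (SE 0.086) over both, with adjusted p 0.0911 by edgeR and 0.00877 by DESeq2. The male value was 0.33 with the title number as a covariate, and the female value 0.35 without the libraries high in B cell markers.

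Slc25a20, the carrier that exchanges acylcarnitine for carnitine at the inner membrane, measured 84.8, 93.1, 101 and 83.3 CPM in male WT and 123, 121, 99.4 and 125 CPM in male LKO. In females it measured 97.6, 90.6, 118 and 95.6 CPM in WT and 153, 111, 118 and 120 CPM in LKO. The groups overlapped in each sex through WT replicate 3. On the log2 scale the LKO to WT difference reached 0.38 (SE 0.082) in males, 0.33 (SE 0.11) in females and 0.35 (SE 0.072) over both (adjusted p 0.047, edgeR). Without single libraries the value over both sexes was 0.30 to 0.39, with adjusted p from 0.0276 to 0.0979. In females it was 0.21 without female LKO replicate 1 and 0.53 without the libraries high in B cell markers. The latter fit kept female LKO replicates 1 and 4 alone, and replicate 1 held the highest value (153 CPM).

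Cpt2, the inner-membrane transferase, measured 128, 125, 147 and 119 CPM in male WT and 162, 148, 167 and 163 CPM in male LKO. The female values were 121, 127, 145 and 135 CPM in WT and 161, 148, 141 and 159 CPM in LKO. The male groups did not overlap and the female groups did. Its LKO over WT log2 fold change reached 0.31 (SE 0.074) in males, 0.21 (SE 0.071) in females and 0.25 (SE 0.051) over both (adjusted p 0.0426, edgeR), with adjusted p from 0.023 to 0.0882 without single libraries. The female value was 0.33 without the libraries high in B cell markers. The remaining carnitine genes did not pass in either tool: Slc22a5, the plasma-membrane carnitine transporter, averaged between 86.5 and 88.9 CPM in the 4 groups, and Crat, which makes acetylcarnitine, between 68.5 and 77.1 CPM.

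The other acyl-CoA dehydrogenases differed in direction. Acadvl, the very-long-chain enzyme bound to the inner membrane, measured 149, 147, 164 and 138 CPM in male WT and 177, 171, 153 and 194 CPM in male LKO. Female WT libraries held 154, 156, 143 and 152 CPM and female LKO libraries 187, 176, 185 and 166 CPM. The female groups were apart and the male groups overlapped through male LKO replicate 3. The log2 ratio of LKO to WT reached 0.22 (SE 0.079) in males, 0.24 (SE 0.059) in females and 0.23 (SE 0.049) over both. The adjusted p over both was 0.0502 by edgeR and 0.00386 by DESeq2. The male value was 0.14 with the title number as a covariate.

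Acadm, the medium-chain enzyme, measured 132, 126, 127 and 109 CPM in male WT and 123, 123, 117 and 133 CPM in male LKO. In females it measured 119, 112, 115 and 124 CPM in WT and 120, 118, 114 and 110 CPM in LKO. The genotypes overlapped throughout and the group means lay between 116 and 124 CPM. Acads, the short-chain enzyme, averaged 121 CPM in male WT, 138 CPM in male LKO, 125 CPM in female WT and 129 CPM in female LKO and did not pass.

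Acad11, a less studied member of the family, was lower in LKO on average. It measured 73.8, 76.8, 73.1 and 69.5 CPM in male WT and 70.9, 62.8, 61.8 and 64.1 CPM in male LKO. The female values were 72.9, 59.4, 76.2 and 67.5 CPM in WT and 58.1, 54.5, 60.1 and 54.7 CPM in LKO. Its log2 fold change over both sexes was -0.23 (SE 0.051), which passed with DESeq2 (adjusted p 0.00713) and not with edgeR. Its relative Acad10 averaged 9.17 and 8.41 CPM in male WT and LKO and 11.1 and 9.27 CPM in female WT and LKO, and passed in neither tool.

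In the later steps of the spiral, Hadha passed in edgeR and Acaa2 in DESeq2, both higher in LKO. Hadha, which carries the long-chain hydratase and hydroxyacyl-CoA dehydrogenase activities, measured 295, 305, 329 and 282 CPM in male WT and 362, 342, 352 and 400 CPM in male LKO. Female WT libraries held 283, 289, 319 and 308 CPM and female LKO libraries 382, 344, 339 and 327 CPM. Every LKO library was above every WT library of the same sex. On the log2 scale the LKO to WT difference reached 0.27 (SE 0.072) in males, 0.22 (SE 0.067) in females and 0.24 (SE 0.047) over both (adjusted p 0.0321, edgeR), with adjusted p from 0.0254 to 0.0814 without single libraries.

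Acaa2, a mitochondrial thiolase, measured 73, 76.9, 73.7 and 63 CPM in male WT and 82.4, 88.5, 78.4 and 105 CPM in male LKO. In females it measured 79, 76.3, 75.1 and 87.8 CPM in WT and 106, 91.9, 88.7 and 83.9 CPM in LKO. The male groups were apart and the female groups overlapped. Its LKO over WT log2 fold change reached 0.31 (SE 0.091) in males, 0.22 (SE 0.079) in females and 0.26 (SE 0.063) over both, with adjusted p 0.0849 by edgeR and 0.0205 by DESeq2. The male value was 0.13 with the title number as a covariate, and the female value 0.15 without female LKO replicate 1. The other members of these steps did not pass in either tool. Hadh averaged between 347 and 371 CPM in the 4 groups, Echs1, the short-chain hydratase, between 107 and 118 CPM, Hsd17b10, which also oxidises branched-chain acyl-CoA, between 47.4 and 49.7 CPM, and Hadhb, the partner subunit of Hadha, between 18.1 and 20.6 CPM.

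The auxiliary enzymes and the electron acceptors passed in neither tool. Eci1 and Eci2, isomerases for unsaturated chains, averaged between 37.1 and 40 CPM and between 41.1 and 49.4 CPM, and Decr1, the dienoyl-CoA reductase, between 93.1 and 99.4 CPM. Etfa and Etfb, subunits of the electron transfer flavoprotein, averaged between 114 and 120 CPM and between 98.1 and 114 CPM. Eci2 and Etfb, the latter with the overlap given above, were higher in every female LKO library than in every female WT library, and neither passed the threshold.

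Etfdh, which passes the electrons to ubiquinone, measured 114, 99, 107 and 95.9 CPM in male WT and 111, 119, 114 and 126 CPM in male LKO. The female values were 98.4, 102, 114 and 105 CPM in WT and 118, 105, 102 and 106 CPM in LKO. The groups overlapped in both sexes.

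The thioesterases, which release free fatty acid from acyl-CoA, lay far apart in level, at 1.83 RPKM for Acot2 and 39.1 RPKM for Acot13. Acot2 averaged 2.67 and 4.03 CPM in male WT and LKO and 4.23 and 5.15 CPM in female WT and LKO, with at least 34 counts in every library, and Acot13 averaged between 25.6 and 27.4 CPM. Neither passed.

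Neither ketone body enzyme among the members had a higher mean in LKO. Oxct1, which activates acetoacetate for oxidation in tissues that burn ketone bodies, measured 392, 353, 361 and 372 CPM in male WT and 335, 319, 298 and 320 CPM in male LKO. Female WT libraries held 333, 348, 381 and 351 CPM and female LKO libraries 332, 321, 290 and 341 CPM. All male LKO libraries lay below all male WT libraries, and the female groups overlapped. The log2 ratio of LKO to WT was -0.21 (SE 0.064) in males, -0.14 (SE 0.068) in females and -0.18 (SE 0.044) over both, with adjusted p 0.0968 by edgeR and 0.0105 by DESeq2. The female value was -0.03 without the libraries high in B cell markers.

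Bdh1, which interconverts acetoacetate and 3-hydroxybutyrate, measured 169, 171, 182 and 166 CPM in male WT and 165, 167, 165 and 168 CPM in male LKO. In females it measured 154, 174, 153 and 151 CPM in WT and 153, 147, 147 and 148 CPM in LKO. The genotypes overlapped in both sexes and the LKO libraries of each sex were close together.

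Pdk4, the kinase that inactivates pyruvate dehydrogenase and spares glucose, measured 3.89, 4.53, 5.73 and 9.03 CPM in male WT and 9.77, 13.9, 4.09 and 8.64 CPM in male LKO. The female values were 14.7, 6.39, 4.06 and 7.51 CPM in WT and 15.4, 11.6, 7.59 and 8.77 CPM in LKO. The genotypes overlapped in both sexes and it did not pass. Among the acyl-CoA synthetases, Acsl5 averaged between 651 and 758 CPM in the 4 groups and did not pass.

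**Figure D3:**
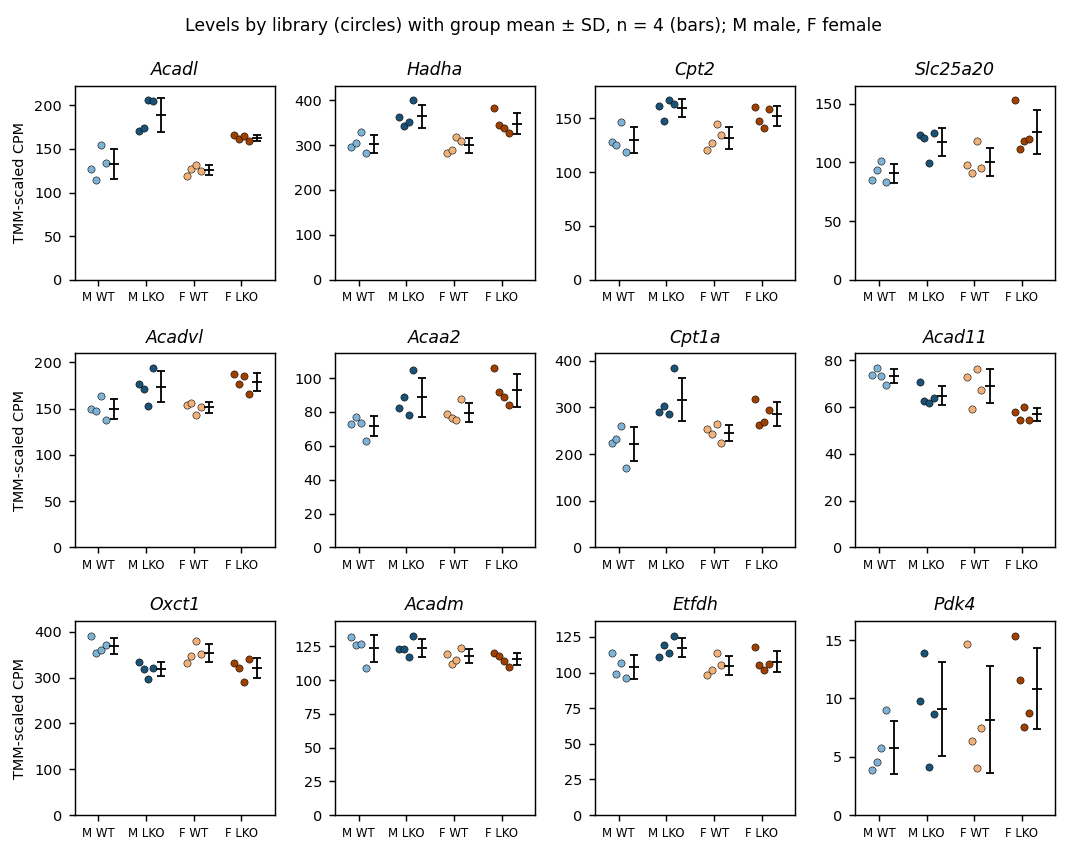
TMM-scaled CPM of 12 genes in each library (circles) with the group mean ± SD over 4 animals (bars) for male (M) and female (F) WT and LKO, on axes that start at 0. Acadl and Hadha show no overlap between genotypes in either sex, Acadm and Etfdh overlap, and Pdk4 is scattered in every group.

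Within each sex fewer genes passed. In males, 0 members passed in edgeR, where 0.0527% of 15169 genes passed. At an unadjusted p under 0.05 there were 13 members, 10 higher and 3 lower, where 5.29% of genes passed, and DESeq2 called 4 members (Cpt1a, Slc25a20, Cpt2 and Acadl), where it called 0.385% of genes. The smallest adjusted p in edgeR among the members was that of Acadl, 0.0669. In all, 5 members (Cpt1a, Cpt2, Acadl, Hadha and Acaa2) were higher in every male LKO library, where 1.66% of genes were, and Oxct1 was lower in every one, where 1.31% of genes were. Several of these members moved together between animals, so their count is not one of separate observations. Cpt1a, Cpt2, Hadha and Acaa2 were all lowest in male WT replicate 4. Cpt1a, Hadha and Acaa2 were all highest in male LKO replicate 4, and Acadl was at neither extreme. Paneth cell markers also moved with genotype in males, with a summed level of 12600 to 14800 CPM in WT and 18100 to 22600 CPM in LKO, and their part in the members' values was not tested.

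In females, 1 member passed in edgeR (Acadl, adjusted p 0.0431), where 0.0392% of 15298 genes passed, and DESeq2 called 2 (Acadl and Acadvl), where it called 1.02% of genes. Acadl lost its call in each of the 8 fits without a single female library, with adjusted p between 0.0828 and 0.147 and a log2 fold change between 0.35 and 0.40. In all, 5 members (Acadvl, Acadl, Hadha, Eci2 and Etfb) were higher in every female LKO library, where 3.04% of genes were, and 0 were lower in every one, where 3.27% of genes were. All 5 were highest in female LKO replicate 1, the deepest library, so they too are not separate observations. Acadl and Hadha were thus the members without overlap in either sex. The female groups differed in summed B cell markers, with 20.3 to 63.9 CPM in WT and 26.3 to 352 CPM in LKO, and in adipocyte markers, with 134 to 283 CPM in WT and 188 to 433 CPM in LKO.

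The male and female contrasts share no animals. Of the 30 members, 25 had the same sign of log2 fold change in the 2 sexes, 17 higher and 8 lower in LKO, which is 83.3% against 54.3% of the 15070 genes tested in both sexes. Across the members, Pearson's r between the sexes was 0.86 and Spearman's rho 0.82, against a rho of 0.12 across all these genes. Genes are not independent replicates, and the members were chosen with both contrasts known, so these values carry no p.

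**Figure D4:**
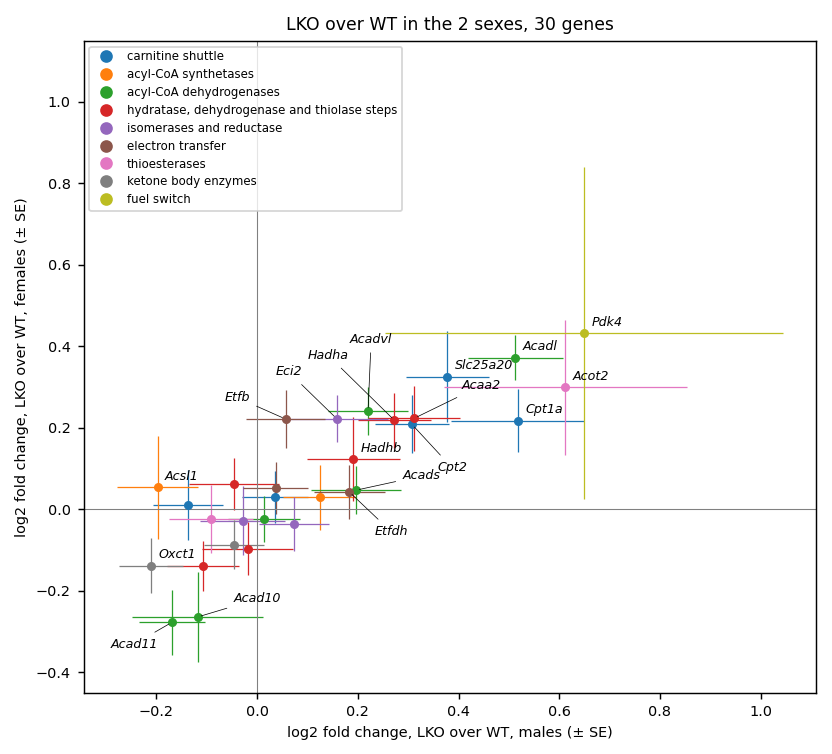
Log2 fold change (LKO over WT) in males (x axis) against females (y axis) for 30 genes, with standard errors from edgeR as bars and colours by role. Of the 30 points, 17 lie in the upper right and 8 in the lower left quadrant, and Pdk4 and Acot2 have the widest bars.

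Whether the genotype effect differed by sex was tested with an interaction term. No member passed in edgeR (0 of 30, where 0% of 15598 genes passed) or in DESeq2 (0 of 30, where 0% passed), and 0 members had an unadjusted p under 0.05, where 5.64% of genes did. The male effect on Cpt1a exceeded the female effect by a log2 of 0.30 (SE 0.16, adjusted p 0.845, edgeR), and that on Acadl by 0.13 (SE 0.11, adjusted p 0.882). The Cpt1a difference was 0.19 without male WT replicate 4, without male LKO replicate 4 or without the libraries high in B cell markers, and that of Acadl ran from 0.05 without these last to 0.36 without the libraries high in Car1. Differences of this size between the sexes were therefore not resolved with 4 animals a group.

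The sexes were compared within each genotype, a contrast that was not used in choosing the members, though its libraries are those of the genotype contrasts. In WT, 0 members passed in edgeR, where 0.25% of 15229 genes passed. Acad10 and Acot2 had an unadjusted p under 0.05, both lower in males, where 13.9% of genes had one, and DESeq2 called 0 members, where it called 2.45% of genes. The median log2 difference of the members, male minus female, was -0.02.

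In LKO, 0 members passed in edgeR, where 0.0984% of 15250 genes passed, and 5 had an unadjusted p under 0.05 (Acsl5, Acadl, Acad11 and Bdh1 higher and Acsl1 lower in males), where 22.6% of genes did. DESeq2 called 2 members, where it called 7.5% of genes. Acsl1, a long-chain acyl-CoA synthetase that is abundant in fat and muscle, measured 37.8, 37.7, 36.9 and 40.7 CPM in male LKO and 45.2, 63.2, 51.5 and 41.4 CPM in female LKO. All male values lay below all female values, with a log2 difference of -0.39 (SE 0.11, adjusted p 0.0977 by edgeR and 0.0328 by DESeq2). It was -0.05 (adjusted p 0.983, edgeR) with smooth muscle markers as a covariate, -0.17 with B cell markers as one and -0.19 without the libraries high in B cell markers. Summed smooth muscle markers were at 2860 to 3660 CPM in male LKO and 3860 to 5380 CPM in female LKO. For B cell markers the sums were 19.7 to 23.1 CPM and 26.3 to 352 CPM. Neither covariate can therefore be told apart from sex in LKO, and these values do not show what lies behind the Acsl1 difference. The WT values of Acsl1 were 46.3, 42.9, 38.3 and 48.8 CPM in males and 49.6, 45.3, 43.6 and 55.1 CPM in females. Adipocyte markers moved the same way in LKO, with a summed level of 95.1 to 176 CPM in males and 188 to 433 CPM in females, and their part in the Acsl1 value was not tested. Bdh1 was higher in every male than in every female LKO library (values above), with a log2 difference of 0.16 (SE 0.051, adjusted p 0.118 by edgeR and 0.0241 by DESeq2).

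The other genes of the pathway were taken by name from lists. Of 36 further genes of mitochondrial fat oxidation and ketone body metabolism, 35 were tested over both sexes, 13 were higher and 22 lower, 0 passed in edgeR (4 at an unadjusted p under 0.05, where 11.2% of all genes tested were) and 1 in DESeq2 (Acacb, the mitochondrial acetyl-CoA carboxylase), and their median log2 fold change was -0.03. In the tricarboxylic acid cycle (18 tested) and the respiratory chain (23 tested) 0 genes passed in either tool or at an unadjusted p under 0.05, with medians of -0.03 and 0.0038. Peroxisomal oxidation genes (18 tested) had a median of 0.05, with 0 passing in either tool and 1 at an unadjusted p under 0.05. Of 16 PPAR alpha targets tested, 14 were higher and 2 lower with a median of 0.15, 0 passed in edgeR (4 at an unadjusted p under 0.05), and DESeq2 called 3 (Acot1, Vnn1 and Creb3l3), where it called 1.45% of all genes. By sex, 11 of the 15 tested in males were higher (median 0.04) and 14 of the 16 tested in females (median 0.29). Of all genes, 7468 of 15169 were higher in males and 7924 of 15298 in females. Adipocyte markers had medians of -0.63 in males and 0.79 in females, and the part of fat cells in the PPAR alpha target values was not tested.

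**Figure D5:**
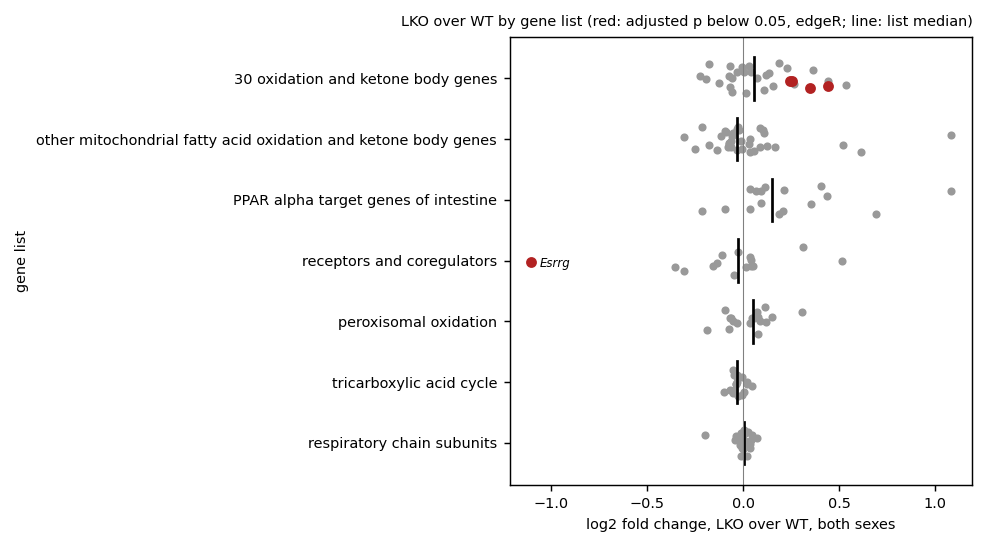
Log2 fold change (LKO over WT, both sexes) of single genes (points) in 7 gene lists, with red for adjusted p under 0.05 in edgeR and a black line at the list median; some genes appear in 2 lists. The 4 red points of the top list are Hadha, Cpt2, Slc25a20 and Acadl, and Esrrg is the red point at the far left.

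Among the receptors and coregulators of these genes (15 tested, median log2 fold change -0.03), Esrrg alone passed in edgeR, and DESeq2 called Esrrg and Ppargc1a lower and Bcl6 itself higher. The highest Bcl6 values, 23.6 and 26.1 CPM, were those of female LKO replicates 2 and 3, with B cell marker sums of 185 and 352 CPM. Male LKO libraries, at 17.2 to 21.9 CPM of Bcl6, had sums of 19.7 to 23.1 CPM. The part of B cells in the Bcl6 call was not tested. Esrrg encodes an orphan nuclear receptor of the ERR family and measured 7.52, 7.65, 6.75 and 4.72 CPM in male WT and 3.51, 3.23, 3.51 and 2.38 CPM in male LKO. Female WT libraries held 6.2, 6.5, 7.35 and 4.94 CPM and female LKO libraries 2.6, 3.42, 2.08 and 3.35 CPM. The log2 fold change over both sexes was -1.11 (SE 0.13, adjusted p 0.000473, edgeR), with no overlap between genotypes in either sex, and was -1.07 in males (adjusted p 0.0619) and -1.14 in females (0.0555). With the title number as a covariate it was -0.99 over both sexes (adjusted p 0.0522) and -0.60 in males. Ppargc1a, a coactivator of PPAR and ERR receptors, had a log2 fold change of -0.35 (SE 0.091), which passed with DESeq2 (adjusted p 0.0248) and not with edgeR (0.105). Esrra ranged from 174 to 215 CPM, Ppara from 26.2 to 43.3 CPM and Ppard from 214 to 315 CPM over the 16 libraries, and none of these passed over both sexes in either tool.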

How the data were processed

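Ileum RNA of 16 mice (4 groups of 4) had been sequenced as single-end reads after a stranded poly(A) library preparation. The authors aligned reads to mm10 with STAR 2.5.2, keeping uniquely mapped reads, and deposited raw counts per gene over exons from HOMER 4.10; the annotation version and the strand option are not given in the sources used here. No column of per-sample values was left unused. The deposited counts were tested with edgeR 4.0.16 in R 4.3.3 (TMM scaling, filterByExpr, robust quasi-likelihood test) on the 2 groups compared, or on all 16 animals with sex (and, for the difference between the sexes, the interaction) in the model, and p-values were adjusted by Benjamini-Hochberg over all genes tested, with a threshold of 0.05. DESeq2 1.42.0 was the alternative, as the authors used DESeq2. Standard errors are the log2 fold change over the square root of F. The scripts were tested on simulated data.

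Depth limits low genes most, and 3 counts were taken as the limit of a count of 0. Title numbers mark separate animals, so p-values measure the spread between these animals. Groups came from the labels. The members and gene lists were chosen with earlier results of these data known. All 30 members were named with their group levels. Every library was given for members past an adjusted p of 0.05 in any of the 6 comparisons (edgeR or DESeq2) and always for Cpt1a, Acadvl, Acadl, Acadm, Hadha, Acaa2, Etfdh, Pdk4, Bdh1 and Oxct1. From the other lists up to 5 genes past the threshold with the smallest p were named per comparison, and always Esrra, Esrrg, Ppara, Ppard and Ppargc1a. Mmut was not matched by that symbol. Some items of the lists are not reported here. Near-identical transcripts were searched with BLAST+ 2.17.0+, promoters came from RefSeq tables of GRCm38.p6 (mm10), and figures were drawn with matplotlib 3.10.9. Alternatives changed the scaling, the filter, the tool, the covariates, the depth, the replicate block and single libraries.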

Additional observations from a re-analysis of the deposited data

Results flagged for a closer look

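Each member was examined in each group of 4 for a single library far from the others, which gave 6 cases in 120 tests, where chance gives about 1 in 20. Slc25a20 was at 99.4 CPM in male LKO replicate 3, with the others from 121 to 125 CPM, and without that library the male groups would not overlap. Acsl5 was at 725 CPM in female LKO replicate 2, with the others from 640 to 649 CPM. Acad10, part of whose transcript matches Acad12, was at 6.78 CPM in male LKO replicate 3 (the others from 8.9 to 9 CPM) and at 10.9 CPM in female LKO replicate 3 (the others from 8.64 to 8.87 CPM). Echs1 was at 105 CPM in male WT replicate 4, the others lying between 121 and 123 CPM. Bdh1 was at 174 CPM in female WT replicate 2, the others lying between 151 and 154 CPM. Female LKO replicates 2 and 3 are the libraries with the highest B cell marker sums, and the part of those cells in the Acsl5 and Acad10 values was not tested.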

How the results depend on the processing

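Of 927 recomputed values of single genes 814 kept their direction and side of the threshold, 75 lost a call, 38 gained one and 0 turned direction. The number of members called moved as follows, and the causes were not tested. In males (0 called) it was 4 with DESeq2 and 1 each without a low-count filter, with the replicate block, with all 16 libraries in one fit, with the smooth muscle covariate and without the libraries high in Car1. In females (1 called) it was 2 with DESeq2 and 0 with the non-robust fit, the replicate block, thinned counts, the B cell, smooth muscle or colon and cecum covariate, the title number, all 16 libraries in one fit, and without the libraries high in Car1 or in B cell markers, where the median log2 fold change of the members was 0.11 (0.05 in full). Over both sexes (4 called) it was 9 with DESeq2, 1 with the replicate block, with the replicate block within sex, with the colon and cecum covariate and without the libraries high in Car1 (Acadl each time), 2 without those high in B cell markers (Slc25a20 and Acadl) and 0 with the title number. Between the sexes in LKO (0 called) it was 2 with DESeq2, and in WT the median was -0.10 with the enterocyte covariate (-0.02 without). The replicate block changed no other count. Same-numbered animals correlated between -0.10 and 0.26. The best match was the own number for 2 animals of the female contrast, 1 of the male contrast, 2 in LKO and 0 in WT. These values do not settle whether the numbers pair animals.

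Leaving out single libraries gave 0 to 1 members in males (Acadl without male WT replicate 3), 0 in females each time, 1 to 5 over both sexes, 0 for the interaction and WT, and 0 to 1 in LKO (Acsl1 without female LKO replicate 4). The medians ranged from 0.0378 to 0.11 in males, 0.0263 to 0.072 in females, 0.0429 to 0.0746 over both, 0.00977 to 0.0887 for the interaction, -0.0401 to 0.0175 in WT and -0.0309 to 0.0314 in LKO. Over both sexes Acadl kept its call in 16 of 17 alternatives (not with the title number), whereas Hadha lost it in 6 and in 9 of the 16 fits without a single library, Cpt2 in 6 and 13, and Slc25a20 in 8 and 13. The colon and cecum covariate, the block within sex and the libraries left out by Car1 or B cell markers were chosen after seeing the data.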

Other observations

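More tricarboxylic acid cycle genes were higher in males than in females. In WT 17 of 18 were higher in males, with a median log2 difference of 0.09, and in LKO 17 of 18 were, with a median of 0.10, where the medians of all genes were -0.0073 and -0.00053. In edgeR 0 of these genes passed in either genotype. Before adjustment, 4 of the 18 had an edgeR p below 0.05 in WT, against 13.9% of all genes tested. The LKO count was 7 of 18, against 22.6% of all genes. DESeq2 called 0 of them in WT and 1 in LKO, against 2.45% and 7.5% of all genes. Some other lists leaned the same way: 21 of 23 respiratory chain genes were higher in males in WT (median 0.11) and 16 of 23 in LKO (0.04). So were 10 of 11 enterocyte markers in WT (median 0.11) and 9 of 11 in LKO (0.15). Ileal enterocyte markers did not, with 3 higher and 5 lower in males in WT (median -0.17). In LKO 4 of these were higher and 4 lower (median -0.01). Smooth muscle markers were lower in males, with a summed level of 2860 to 3660 CPM in male LKO against 3860 to 5380 CPM in female LKO, and the part of these cells was not tested.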
